A study of Mus musculus with 16 samples.

Results

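Aqp4, Chrna9, Fgf5 and Mpp3 are 4 genes chosen because, in the same arrays, their levels in fasted quadriceps were higher without the muscle FoxO factors than with them. They are 4 of the 21368 mouse genes with a symbol on the array. They were read through the 5 probes whose RefSeq accession belongs to them, of 55681 probes in all, and all 4 passed the filter on dim probes. Since the levels themselves chose the genes, they are described here without a test.

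The study measured total RNA of quadriceps, a thigh muscle, from male mice 8 weeks old, on 16 single-colour Agilent arrays. WT mice and mFoxO-TKO mice, which lack Foxo1, Foxo3 and Foxo4 in skeletal muscle, were either fed freely or fasted for 24 h, with 4 arrays in each of the 4 groups. Fasted mice were kept in cages of their own, and neither the caging of fed mice nor the promoter that limits the deletion to muscle is given in the sources used here. Replicates 1 and 2 of every group were on slide 1 and replicates 3 and 4 on slide 2, and on each slide a group kept to its own column of arrays, so that position on the slide and group cannot be told apart.

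FoxO factors are transcription factors held in the cytoplasm by insulin signalling through Akt. In fasting muscle they enter the nucleus and turn on genes of protein breakdown and fuel switching. Other genes become less abundant when FoxO factors are active. Aqp4 encodes the main water channel of the fast muscle fibre membrane, where it is held at the dystrophin complex. Chrna9 encodes a subunit of nicotinic acetylcholine receptors best known from the hair cells of the inner ear. Fgf5 encodes a secreted fibroblast growth factor known for ending the growth phase of hair. Mpp3 encodes a scaffold protein of the membrane-associated guanylate kinase family, with PDZ and SH3 domains.

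Levels are log2 signals minus the 75th percentile of the array, so that 0 is the level of that percentile. Levels of different probes are not compared, because probes bind with unequal strength. Spots well above background made up 45.0% to 75.2% of an array, none was saturated, and the number of arrays limits the precision. Of the targeted genes, Foxo1 was lower in mFoxO-TKO, with a log2 difference of -1.76 in fed and -3.40 in fasted mice (adjusted p = 0.00117 and 3.38e-07, limma across all genes). Foxo4 was well above background on all 8 WT arrays and on 0 of 8 mFoxO-TKO arrays, whereas Foxo3 did not pass between genotypes (fed 0.74, fasted -0.75, adjusted p = 0.299 and 0.0976). Whether these probes lie in the deleted parts was not tested. All 10 skeletal muscle fibre markers were tested and 0 passed in any contrast at an adjusted p under 0.05. The fasted mFoxO-TKO array of replicate 1 stood apart: the median of its kept probes deviated from its group by 0.37 under this scaling, and by 0.03 when the percentile was taken over all spots. Without that array the genotype difference in fasted mice was 3.98 for Aqp4, 5.55 for Chrna9, 2.65 for Fgf5 and 3.06 for Mpp3, against 3.86, 5.45, 2.66 and 3.14 with it. The fasting difference in mFoxO-TKO was 0.06, 1.30, 0.72 and 0.33 in the same order of genes, against -0.06, 1.20, 0.72 and 0.41 with it.

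The working name of the set, higher only in fasted knockout muscle, does not describe these levels. In 0 of the 4 genes did the 4 fasted mFoxO-TKO arrays all lie above the other 12, an order seen in 0.71% of the 21281 genes tested (14150 with a symbol). Fgf5 met it when the percentile was taken over spots in place of probes. In Aqp4, Fgf5 and Mpp3 the 4 fasted WT arrays all lay below the other 12, an order seen in 3.08% of the genes tested and counted only after the values were seen. These 3 genes were lower with fasting in WT and not separated by fasting in mFoxO-TKO, an outcome that 12.9% of all genes shared. For these 3 the outcome was thus a lower level on fasting that was seen with FoxO and not without it, and for none of the 4 was it a higher level set apart on fasting without FoxO. Chrna9 had neither order, and 79.3% of genes likewise had neither. Chrna9, like Aqp4, was already higher in fed mFoxO-TKO than in fed WT muscle. A level set apart as higher with fasting in mFoxO-TKO only was seen in 7.68% of genes, and both orders together in 0.0705%.

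**Figure D1:**
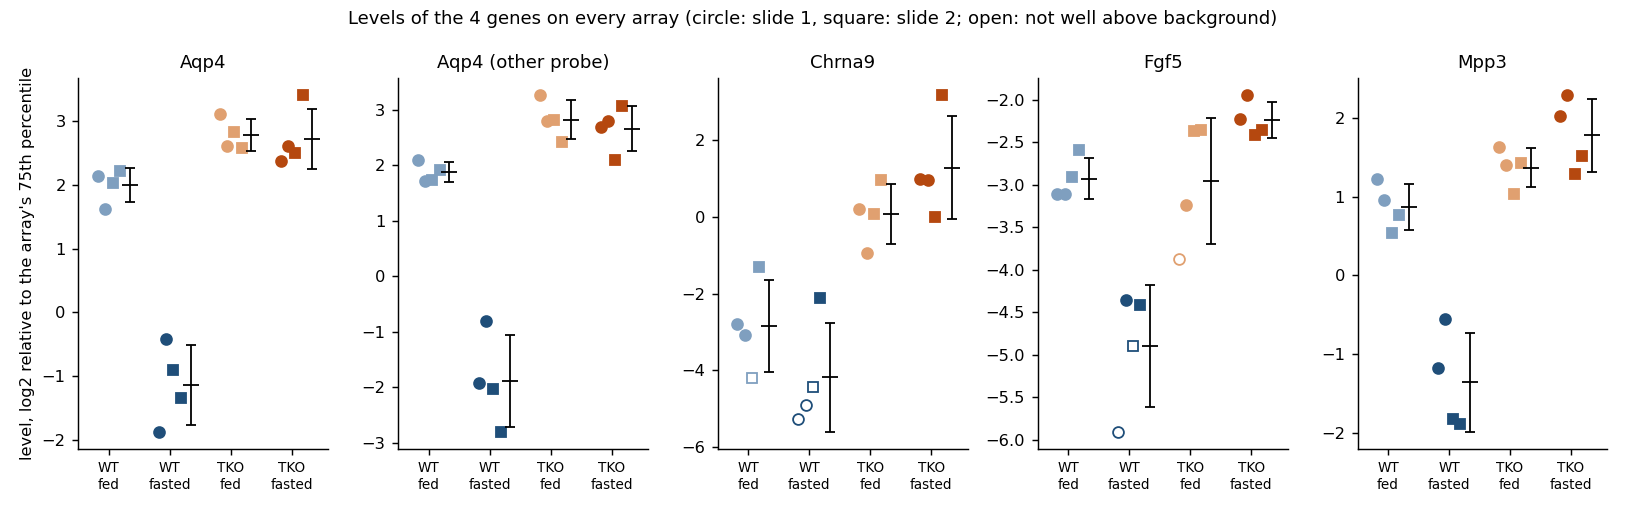
Level of each probe on every array (y axis, log2 relative to the array's 75th percentile) in the 4 groups (x axis), with the group mean and SD of 4 arrays beside the points. For Aqp4, Fgf5 and Mpp3 the 4 fasted WT points lie below all others, and for Chrna9 the 8 mFoxO-TKO points lie above the 8 WT points.

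Aqp4 was the member with the clearest loss in fasted WT muscle. Its brighter probe read 2.14, 1.62, 2.03 and 2.22 in the 4 fed WT arrays, in the order of their replicate numbers. In fasted WT it read -1.88, -0.42, -0.90 and -1.35. In fed mFoxO-TKO it read 3.11, 2.61, 2.83 and 2.58, and in fasted mFoxO-TKO 2.37, 2.61, 2.51 and 3.41. The fasted WT arrays thus lay far below every other array, while the fed and fasted mFoxO-TKO arrays overlapped.

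The group means of Aqp4 were 2.0 ± 0.27 in fed WT, -1.14 ± 0.63 in fasted WT, 2.78 ± 0.25 in fed mFoxO-TKO and 2.72 ± 0.47 in fasted mFoxO-TKO (SD, n = 4 each). In order, fasted WT was lowest and fed WT next, and the 2 mFoxO-TKO groups at the top did not differ beyond their spread. Fasting went with a difference of -3.14 ± 0.28 in WT (standard error of the model), a level 8.81-fold lower. In mFoxO-TKO the same difference was -0.06 ± 0.28. The mFoxO-TKO level exceeded WT by 0.78 ± 0.28 in fed and by 3.86 ± 0.28 in fasted mice, and no array of one genotype reached the other in either state. By slide, the WT fasting difference was -3.03 and -3.25, and the fasted genotype difference 3.64 and 4.08.

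The second Aqp4 probe gave the same order with wider steps. Its means were 1.87 ± 0.18 fed and -1.88 ± 0.83 fasted in WT, and 2.82 ± 0.35 fed and 2.66 ± 0.41 fasted in mFoxO-TKO (SD, n = 4 each). Its fasting difference was -3.75 in WT and -0.16 in mFoxO-TKO. Both probes carry the same RefSeq accession, so they are not independent measurements of different transcripts.

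Mpp3 followed the order of Aqp4. It read 1.22, 0.96, 0.54 and 0.77 in fed WT and -1.18, -0.55, -1.83 and -1.89 in fasted WT. In fed mFoxO-TKO it read 1.63, 1.40, 1.03 and 1.43, and in fasted mFoxO-TKO 2.03, 2.29, 1.29 and 1.52. All fasted WT arrays were below 0, and all other arrays were above it.

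Mean Mpp3 levels were 0.87 ± 0.29 fed and -1.36 ± 0.63 fasted in WT, and 1.37 ± 0.25 fed and 1.78 ± 0.46 fasted in mFoxO-TKO (SD, n = 4 each). The fasting difference was -2.24 ± 0.29 in WT, or 4.71-fold lower, and 0.41 ± 0.29 in mFoxO-TKO, where the arrays overlapped. The genotype difference was 0.50 ± 0.29 in fed mice, with overlapping arrays, and 3.14 ± 0.29 in fasted mice. Only the lowest step, from fasted WT to fed WT, exceeded the spread. The genotype difference in fasted mice was alike on the slides, 3.02 on slide 1 and 3.26 on slide 2.

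The signal of Fgf5 was not clear of background on all arrays. It was well above background on 4 fed and 2 fasted WT arrays and on 3 fed and 4 fasted mFoxO-TKO arrays. Its levels were -3.11, -3.11, -2.91 and -2.59 in fed WT and -5.91, -4.36, -4.90 and -4.42 in fasted WT. In fed mFoxO-TKO they were -3.88, -3.24, -2.37 and -2.36, and in fasted mFoxO-TKO -2.23, -1.95, -2.42 and -2.36. The fasted WT arrays were again the 4 lowest. All fasted mFoxO-TKO arrays lay above all fed WT arrays and overlapped only those of fed mFoxO-TKO, which spread from -3.88 to -2.36.

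Mean Fgf5 levels were -2.93 ± 0.24 fed and -4.90 ± 0.72 fasted in WT, and -2.96 ± 0.74 fed and -2.24 ± 0.21 fasted in mFoxO-TKO (SD, n = 4 each). Fasting went with -1.96 ± 0.35 in WT and 0.72 ± 0.35 in mFoxO-TKO, and the genotypes differed by -0.03 ± 0.35 when fed and 2.66 ± 0.35 when fasted. The mFoxO-TKO fasting difference came from slide 1, at 1.47, and was -0.03 on slide 2. Without the fed mFoxO-TKO array of replicate 1, which was not well above background, it was 0.41. With normexp background correction the WT fasting difference was -0.79 and the fasted genotype difference 1.28, each still with no overlap between arrays. The sizes of these differences are limited by the dim fasted WT signal.

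Chrna9 was higher in mFoxO-TKO muscle in both feeding states, as Aqp4 also was. It differed from the other 3 in that its fed and fasted WT arrays overlapped. It read -2.79, -3.08, -4.21 and -1.30 in fed WT and -5.27, -4.90, -4.42 and -2.12 in fasted WT. In fed mFoxO-TKO it read 0.20, -0.95, 0.06 and 0.95, and in fasted mFoxO-TKO 0.97, 0.95, -0.01 and 3.16. No WT array reached the lowest mFoxO-TKO array. Within each genotype the fed and fasted arrays overlapped.

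The means of Chrna9 were -2.84 ± 1.20 and -4.18 ± 1.42 in WT, fed and then fasted, and 0.06 ± 0.78 and 1.27 ± 1.34 in mFoxO-TKO (SD, n = 4 each). The genotype difference was 2.91 ± 0.76 in fed and 5.45 ± 0.76 in fasted mice. Only 1 of the 4 fasted WT arrays was well above background, so no fold is given. The sizes of differences with that group are limited by its dim signal. The fasting difference was -1.33 ± 0.76 in WT and 1.20 ± 0.76 in mFoxO-TKO. Only the step between the genotypes, from fed WT to fed mFoxO-TKO, separated neighbouring groups without overlap.

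The probe of Chrna9 was also among the most variable, with a residual SD of 1.21 against a median of 0.30 over all genes, and 98.6% of genes had a smaller one. It was well above background on 3 fed WT arrays and on all 8 mFoxO-TKO arrays. Replicate 4 was the highest array in all 4 groups. Without the fasted mFoxO-TKO array of replicate 4, the mFoxO-TKO fasting difference was 0.57 in place of 1.20. The WT difference was -0.82 without the fed and -2.02 without the fasted WT array of replicate 4. On slides 1 and 2 the genotype difference was 2.56 and 3.26 in fed and 6.04 and 4.85 in fasted mice. Under normexp background correction the genotype difference in fasted mice was 3.62.

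The 4 genotype differences in fasted mice may be set against the background of the arrays. All 4 genes had non-overlapping arrays there, with mFoxO-TKO higher, as did 6.15% of the genes tested, while 6.65% were lower without overlap. In fed mice Aqp4 and Chrna9 did, against 5.47% of genes higher and 3.68% lower. With fasting in WT, Aqp4, Fgf5 and Mpp3 had all arrays lower, against 13.0% of genes (15.2% were higher), and with fasting in mFoxO-TKO all 4 genes overlapped, where 7.75% of genes were higher and 6.01% lower without overlap. The genes were chosen on these contrasts, so the counts say nothing beyond the choice. The contrasts also share arrays: a low fasted WT group enters both the WT fasting difference and the fasted genotype difference.

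The fasting difference in mFoxO-TKO minus that in WT was 3.08 ± 0.40 for Aqp4, 2.54 ± 1.08 for Chrna9, 2.69 ± 0.50 for Fgf5 and 2.65 ± 0.41 for Mpp3. For Aqp4 almost all of it lay in WT. For Fgf5 and Mpp3 the WT difference was the larger part, with a smaller positive value in mFoxO-TKO. For Chrna9 the differences in WT and mFoxO-TKO were similar in size and opposite in sign, each with overlapping arrays.

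**Figure D2:**
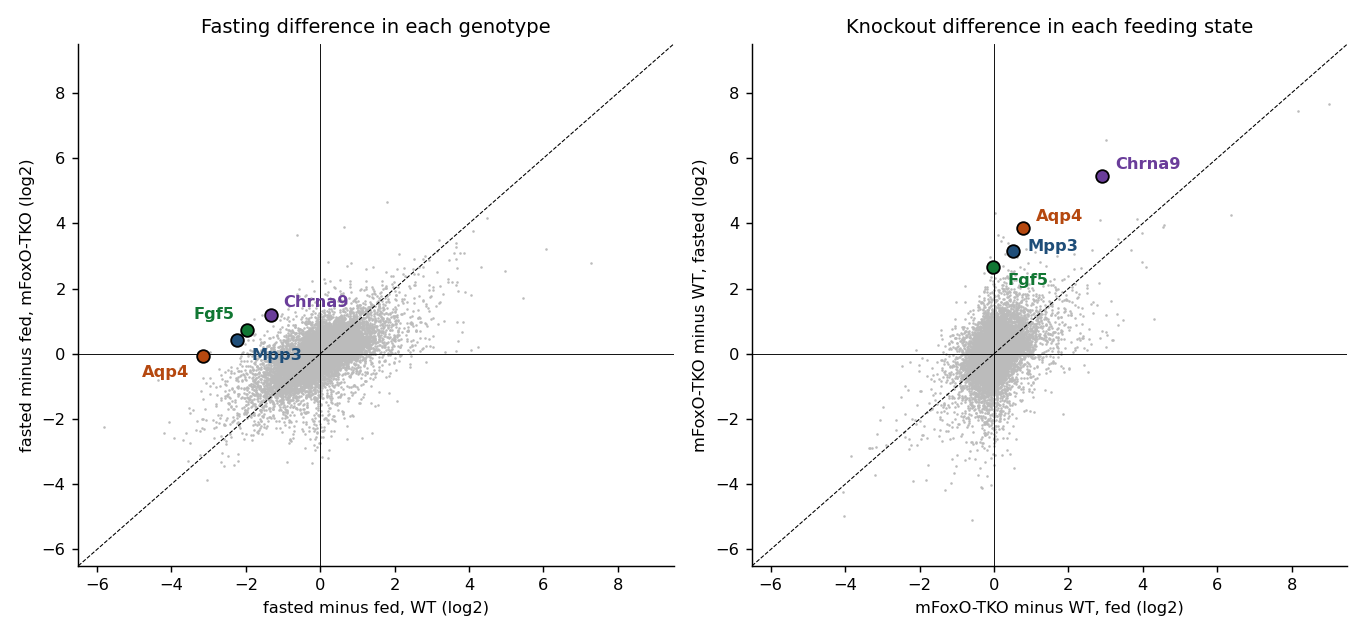
Fasting difference in mFoxO-TKO (y axis, log2) against that in WT (x axis, log2), and genotype difference in fasted (y) against fed (x) mice, for the 21281 genes tested (grey) and the 4 genes (coloured); the dashed line marks equal differences. Aqp4 lies at -3.14 and -0.06 on the left and Chrna9 at 2.91 and 5.45 on the right.

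In muscle taken whole, fewer cells of a type and less RNA per cell cannot be told apart. Among marker lists of other cell types, the summed level of the skin and hair markers was 3.28 to 3.59 in fasted WT, below its 3.67 to 3.91 in fed WT and overlapping its 3.57 to 3.87 in fed and just below its 3.62 to 3.92 in fasted mFoxO-TKO. Of those 10 markers 4 were tested, and 6 (Krt5, Krt1, Dsp, Krt15, Krt71 and Dsg3) were not well above background on every array of any group. Krt10, a keratin of upper epidermis, fell with fasting in WT (-1.02, adjusted p = 0.000525, limma) and in mFoxO-TKO (-0.63, adjusted p = 0.0315). The mFoxO-TKO call was lost without any 1 of 6 arrays. Of the 7 astrocyte markers, a list included because Aqp4 is abundant in that brain cell, 4 were tested and their summed level overlapped between all groups, from 0.99 to 3.36. Of these 4, 2 fell with fasting in WT and 1 in mFoxO-TKO. Slc1a3 fell in both genotypes, and its WT call was lost without any 1 of 5 arrays. Slc4a4, a bicarbonate transporter on that list, fell with fasting in WT (-1.42, adjusted p = 0.00432) and was higher in fasted mFoxO-TKO than WT (1.16, adjusted p = 0.0287). Its genotype call was lost without any 1 of 6 arrays. Of the 10 fibroblast markers 5 fell with fasting in WT and 3 in mFoxO-TKO. Of 8 macrophage and leukocyte markers tested 1 fell and 1, Itgam, rose with fasting in WT, and 1 was higher in fasted mFoxO-TKO than WT. Mrc1, a macrophage scavenger receptor gene, averaged 1.53 ± 0.15 fed and 0.40 ± 0.15 fasted in WT and 2.10 ± 0.17 fed and 1.26 ± 0.71 fasted in mFoxO-TKO (SD, n = 4), lowest in fasted WT like Aqp4, Fgf5 and Mpp3. It fell in WT (-1.14, adjusted p = 0.00488) and was higher in fasted mFoxO-TKO (0.86, adjusted p = 0.0456). The second call was lost without any 1 of 14 arrays. The summed level of that list overlapped between all groups, from 4.88 to 5.68. Of 8 endothelial markers 1, Kdr, fell with fasting in WT (-0.97, adjusted p = 0.0294), and the summed levels overlapped. Of the 10 fibre type markers 0 passed in any contrast. The part of these cells in the members' levels was not tested.

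The genes whose levels over the 16 arrays were most like those of the members were taken from 12016 tested genes with ordinary symbols. These are correlations over arrays of 4 groups, so any gene with the same order of group means scores high. Aqp4 was most like Ahdc1, an AT-hook DNA-binding protein gene (r = 0.972), Plekhh3 (0.958) and Ccdc69 (0.953). Mpp3 was most like Plekhh3 (0.969), Rxrg, which encodes the retinoid X receptor γ (0.961), and Ahdc1 (0.961). Fgf5 was most like Tbx21, a T-box transcription factor gene (0.917), Ccdc69 (0.901) and Ahdc1 (0.894). Chrna9 shared none of these and was most like Fhl2, a LIM-domain protein gene of muscle (0.935), Arhgap36 (0.923) and Tm6sf1 (0.885).

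The genes most like Aqp4, Fgf5 and Mpp3 were likewise lowest in fasted WT. Ahdc1 averaged 1.22 ± 0.21 in fed WT, -0.27 ± 0.30 in fasted WT, 1.48 ± 0.15 in fed mFoxO-TKO and 1.57 ± 0.15 in fasted mFoxO-TKO (SD, n = 4 each). Rxrg went from 5.39 ± 0.20 in fed to 4.10 ± 0.30 in fasted WT, and stood at 5.51 ± 0.26 and 5.52 ± 0.12 in fed and fasted mFoxO-TKO. Ccdc69 went from 1.33 ± 0.13 to -0.78 ± 0.89 in WT and stood at 1.68 ± 0.15 and 1.62 ± 0.17 in mFoxO-TKO. In each of these 3 genes, as in Aqp4, the fed and fasted mFoxO-TKO means differed by less than their SD. Plekhh3 went from 3.87 ± 0.26 to 2.44 ± 0.43 in WT and stood at 4.05 ± 0.23 and 4.30 ± 0.08 in mFoxO-TKO. Its mFoxO-TKO difference of 0.24 was slightly above either SD.

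Fhl2, the gene most like Chrna9, averaged 0.77 ± 0.18 and -0.20 ± 0.41 in fed and fasted WT and 1.53 ± 0.24 and 1.96 ± 0.48 in fed and fasted mFoxO-TKO. Arhgap36 was well above background on 1 fed WT array, 0 fasted WT arrays, 4 fed mFoxO-TKO arrays and 2 fasted mFoxO-TKO arrays. The mean of Tm6sf1 was above WT in mFoxO-TKO by 0.77 fasted and by 0.61 fed, where it did not pass (adjusted p = 0.0964, limma). Between the members themselves, r over the 16 arrays was 0.73 to 0.93, and r of the deviations from the group means was -0.24 to 0.36.

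**Figure D3:**
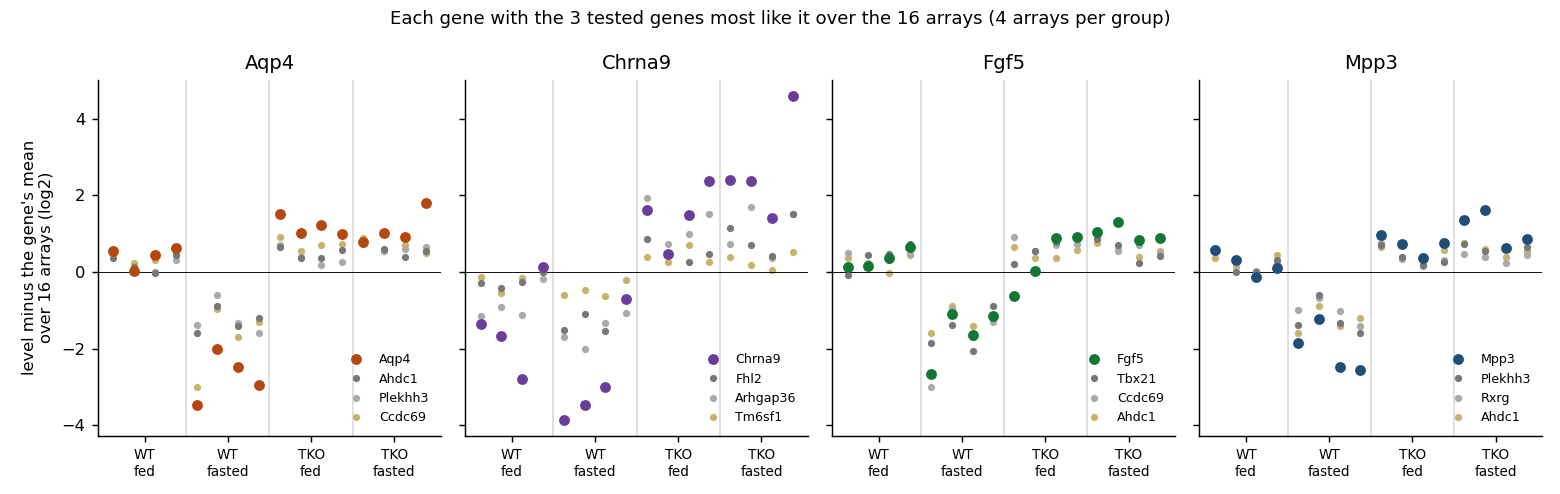
Level minus the gene's own mean over 16 arrays (y axis, log2) of each member (large points) and the 3 genes most like it (small points), array by array within the 4 groups (x axis). In the panels of Aqp4, Fgf5 and Mpp3 the fasted WT points are low, and in that of Chrna9 both WT groups are low.

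Promoter sequence is shown for Chrna9 and Fgf5 only, 2 of the 4 members, from RefSeq with build GRCm38.p6. The promoters of Aqp4 and Mpp3 were not searched. Chrna9 and Fgf5 differ in order between the groups, Chrna9 by genotype and Fgf5 by a low fasted WT group. The 250 bases before each gene start are given. Both genes are on the plus strand. Capitals mark the single motif match found, an E-box, the site type bound by myogenic factors.
Chrna9, chr5:65966874-65967123, plus strand: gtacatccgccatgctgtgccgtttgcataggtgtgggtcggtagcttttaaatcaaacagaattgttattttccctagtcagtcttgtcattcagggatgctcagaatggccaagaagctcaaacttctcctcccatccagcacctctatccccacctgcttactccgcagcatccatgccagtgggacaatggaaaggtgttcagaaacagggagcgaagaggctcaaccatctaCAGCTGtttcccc
Fgf5, chr5:98253934-98254183, plus strand: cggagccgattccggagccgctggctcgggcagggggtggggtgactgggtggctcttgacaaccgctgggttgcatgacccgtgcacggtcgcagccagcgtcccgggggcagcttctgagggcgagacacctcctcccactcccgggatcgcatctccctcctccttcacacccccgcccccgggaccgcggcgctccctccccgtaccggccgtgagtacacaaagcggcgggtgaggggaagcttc

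Both strands were searched for TGTTTAC, a core of FoxO sites, the TGTTTA within it, TGTTCT, a core of glucocorticoid receptor sites, CAGCTG, and TGACG, a core of cAMP response sites. The Chrna9 window held CAGCTG starting 13 bases before the gene start, as 13.0% of 32851 promoters of this length hold it at some position. Neither window held TGTTTAC (3.17% of promoters), TGTTTA (12.0%), TGTTCT (16.1%) or TGACG (17.8%). The Fgf5 window was 70.8% G or C and that of Chrna9 50%. A match is a run of letters, not a binding site, and its absence here says nothing of sites elsewhere.

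The genes that work with each member were read from lists, and unlike the members they were tested, with an adjusted p under 0.05 over all genes tested as the threshold. With fasting in WT 11.2% of all genes passed as higher and 9.57% as lower. With fasting in mFoxO-TKO these shares were 4.29% and 4.23%. For mFoxO-TKO against WT they were 0.507% and 0.512% in fed and 4.39% and 4.97% in fasted mice. The fasting effect differed between genotypes in 0.423% of genes in the positive and 0.724% in the negative direction. The median difference over all genes was between 0.01 and 0.04 in each contrast. The p-values measure the spread between the arrayed samples.

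Of the 11 other aquaporins, 5 were tested and 0 differed between genotypes in either state. Aqp8 fell with fasting in both genotypes, by 1.18 in WT and 1.32 in mFoxO-TKO (adjusted p = 0.000741 and 0.00127). Its fasted signal was well above background on 3 of 4 WT and 2 of 4 mFoxO-TKO arrays, which limits these sizes. Aqp11 passed as lower with fasting in WT (-0.83, adjusted p = 0.0428), a call lost on leaving out any of 12 of the 16 arrays in turn. Aqp1, the water channel of capillaries, did not pass (0.26 in WT, 0.77 in mFoxO-TKO). The list's median was -0.06 with fasting in WT and 0.21 for the fasted genotype difference.

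Of 21 genes of the dystrophin complex and of other Aqp4 anchors, 19 were tested. With fasting in WT 1 passed as higher and 2 as lower, and between fasted genotypes 2 passed as higher and 1 as lower. Dmd, the dystrophin gene, was lower in mFoxO-TKO by 0.92 fed and 0.93 fasted (adjusted p = 0.0276 and 0.00489), and the fed call was lost without any 1 of 7 arrays. Nos1, the neuronal nitric oxide synthase held by the complex, was higher in fasted mFoxO-TKO than WT (0.87, adjusted p = 0.01), and so was the δ-sarcoglycan gene Sgcd (0.73, adjusted p = 0.0169, lost without either of 2 arrays). Sntg2 fell with fasting in WT to a level well above background on 0 of 4 arrays, at least 2.41-fold lower (adjusted p = 0.00226). Such bounds set the brighter mean against the dimmest signal well above background on each array, or the probe's own signal where that is higher. The median of the list was 0.10 with fasting in WT and 0.16 between fasted genotypes.

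Of the 15 other nicotinic receptor subunits, 7 were tested. In fed mice 2 were higher in mFoxO-TKO: Chrna1, the α subunit of the muscle receptor (1.51, adjusted p = 0.0467), and Chrnd, its δ subunit (1.09, adjusted p = 0.0328). Both calls were fragile, lost without any 1 of 13 and any 1 of 7 arrays. In fasted mice 0 of 7 passed between genotypes, with Chrnb1 at 0.45, Chrne at 0.15 and Chrng at 0.29. Chrna2 rose with fasting in WT (0.49, adjusted p = 0.02) and in mFoxO-TKO (1.11, adjusted p = 0.000626), with 3 arrays in at least 1 group, and the WT call was lost without any 1 of 3 arrays. The list's median was -0.13 with fasting in WT and 0.29 between fasted genotypes.

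Of 16 partners of the neuromuscular synapse, where the muscle receptor is clustered, 15 were tested. With fasting in WT 2 rose and 3 fell. Musk, the kinase that clusters receptors, rose (2.46, adjusted p = 0.000783) and was lower in fasted mFoxO-TKO than fasted WT (-1.63, adjusted p = 0.0338). Runx1, a transcription factor gene induced by denervation, rose (1.85, adjusted p = 0.0202). Hdac9, a deacetylase gene, fell in WT by 2.35 and in mFoxO-TKO by 1.68 (adjusted p = 0.000136 and 0.00584). Ache, which encodes the enzyme that clears acetylcholine, fell with fasting in WT (-1.10, adjusted p = 0.00739) and was higher in fasted mFoxO-TKO (1.33, adjusted p = 0.00399). Its levels were 0.68 ± 0.19 and -0.42 ± 0.46 in fed and fasted WT and 1.0 ± 0.43 and 0.91 ± 0.43 in fed and fasted mFoxO-TKO (SD, n = 4). Ncam1, an adhesion gene that marks denervated fibres, was higher in fed mFoxO-TKO than WT (1.06, adjusted p = 0.0483) and fell there with fasting (-1.18, adjusted p = 0.00696). The Musk genotype call was lost without any 1 of 5 arrays, the Runx1 call without 1 array and the first Ncam1 call without any 1 of 13.

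Of the 21 other FGF ligand genes 10 were tested. With fasting in WT 2 rose and 3 fell, and between fasted genotypes 2 were higher in mFoxO-TKO and 0 lower. Fgf1, a ligand of all FGF receptors, rose with fasting in WT (0.69, adjusted p = 0.00335) and in mFoxO-TKO (1.41, adjusted p = 5.54e-05), and was higher in fasted mFoxO-TKO by 0.95 (adjusted p = 0.000634). Fgf6, a ligand gene of muscle, fell in WT (-1.52, adjusted p = 0.00433). Fgf18 fell in WT by 1.5 and in mFoxO-TKO by 0.98 (adjusted p = 0.000972 and 0.0344), the last call lost without any 1 of 7 arrays. Fgf11, of the intracellular FGF branch, fell in WT by 1.12 and in mFoxO-TKO by 0.92 (adjusted p = 0.00169 and 0.015), and was higher in fasted mFoxO-TKO by 1.03 (adjusted p = 0.00579). The list's medians were 0.00 with fasting in WT and 0.34 between fasted genotypes.

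Among 14 FGF receptors and co-receptors, 13 were tested. Fgfr1, a receptor to which Fgf5 binds, averaged 3.32 ± 0.23 and 4.65 ± 0.40 in fed and fasted WT and 3.23 ± 0.16 and 3.12 ± 0.24 in fed and fasted mFoxO-TKO (SD, n = 4), with the highest mean in fasted WT, where Fgf5 had its lowest. It rose with fasting in WT (1.33, adjusted p = 0.000187) and was lower in fasted mFoxO-TKO (-1.53, adjusted p = 0.000101). The difference between the fasting effects was -1.44 ± 0.27 (adjusted p = 0.0171). Kl, the co-receptor gene for endocrine FGFs, fell with fasting in WT to a level well above background on 0 of 4 arrays, at least 2.36-fold lower (adjusted p = 0.00178). In fed mFoxO-TKO, where 1 of 4 arrays was well above background, it was lower than in fed WT (adjusted p = 0.0267, lost without any 1 of 6 arrays). The heparan sulphate carrier genes Sdc1 and Sdc2 fell in WT (-1.10 and -0.64, adjusted p = 0.00755 and 0.0175), and Sdc4 rose in WT (1.32, adjusted p = 0.000946). Each also passed in the same direction with fasting in mFoxO-TKO. There the Sdc1, Sdc2 and Sdc4 calls were lost without any 1 of 5, any 1 of 13 and any 1 of 11 arrays. The Sdc2 call in WT was lost without any 1 of 3 arrays, and Sdc1 was well above background on 3 of 4 fasted WT arrays.

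Of 16 feedback and target genes of FGF signalling, 12 were tested, and with fasting in WT 1 rose and 1 fell. Dusp6, a phosphatase gene induced by FGF signalling, averaged 2.64 ± 0.22 and 1.82 ± 0.39 in fed and fasted WT and 2.75 ± 0.18 and 3.04 ± 0.33 in mFoxO-TKO (SD, n = 4). It fell with fasting in WT (-0.82, adjusted p = 0.0094) and was higher in fasted mFoxO-TKO (1.23, adjusted p = 0.00113). Its interaction of 1.12 did not pass (adjusted p = 0.0874). Dusp4, another phosphatase gene, went the other way, with a rise in WT (3.04, adjusted p = 0.000546) and a lower level in fasted mFoxO-TKO (-2.43, adjusted p = 0.00563). Its signal was well above background on 3 of 4 fed WT and 3 of 4 fasted mFoxO-TKO arrays, which limits these sizes. Spry1 and Spry2, which encode inhibitors of the pathway, did not pass in any contrast.

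Of the other p55-type scaffold genes 6 were tested, and 0 of 6 differed between genotypes in either state. Mpp5, which encodes a cell polarity scaffold, rose with fasting in WT (0.73, adjusted p = 0.00305) and mFoxO-TKO (0.71, adjusted p = 0.00943). Mpp1, Mpp6, Mpp7 and Cask did not pass in WT, at -0.35, 0.15, 0.07 and -0.18. Of 22 partners of such scaffolds 19 were tested, with 1 higher and 2 lower with fasting in WT. Dlg5 rose in WT (0.70, adjusted p = 0.0178) and was lower in fasted mFoxO-TKO (-0.70, adjusted p = 0.0326), calls lost without any 1 of 3 and any 1 of 4 arrays. The cell adhesion gene Cadm3 (-0.87, adjusted p = 0.0434) and the membrane skeleton gene Epb41l3 (-0.59, adjusted p = 0.035) passed as lower in WT, lost without any 1 of 9 and any 1 of 5 arrays. Epb41l3 also passed as lower with fasting in mFoxO-TKO, from 0.24 ± 0.32 fed to -0.70 ± 0.32 fasted (SD, n = 4). That call was kept without each array in turn.

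**Figure D4:**
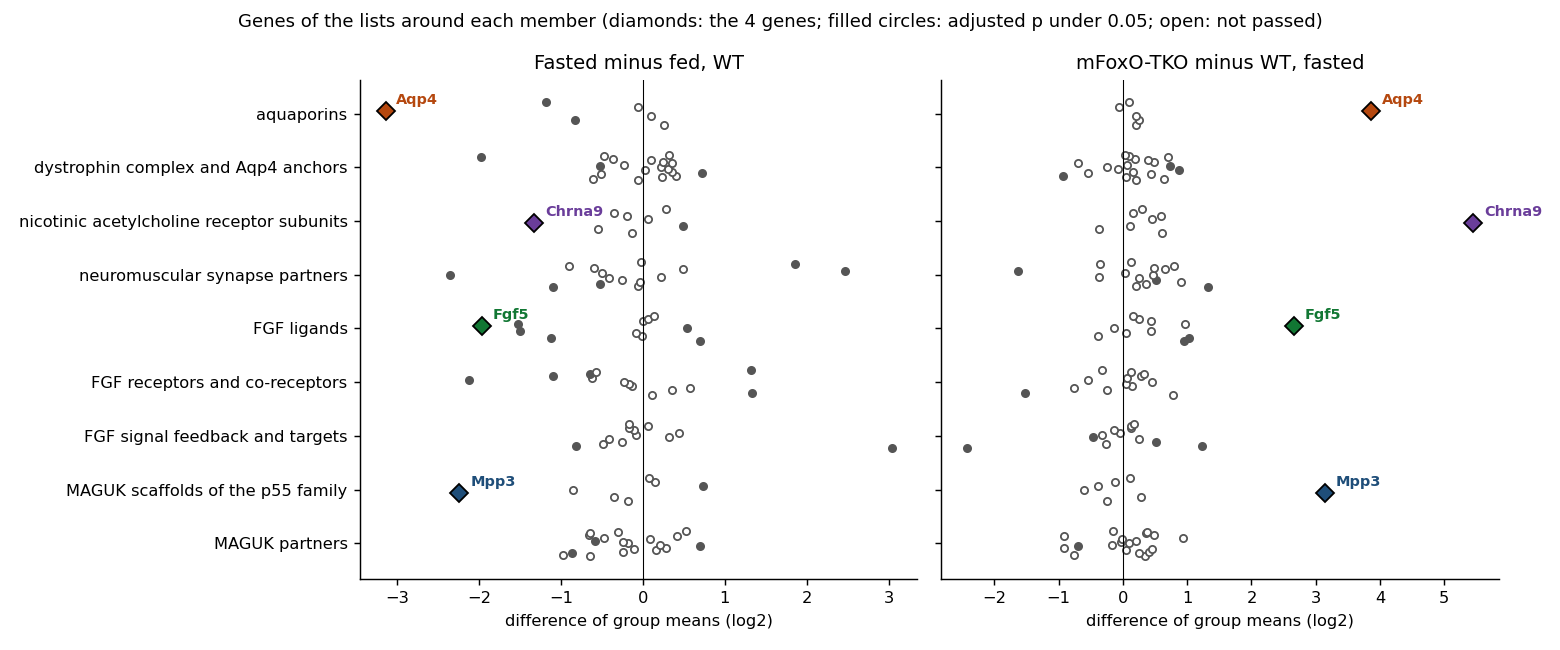
Difference of group means (x axis, log2) for each tested gene of the lists (rows) with fasting in WT (left) and between genotypes in fasted mice (right), the members as diamonds and genes that passed the test as filled circles. The members lie at the low end of their lists on the left and at the high end on the right.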

How the data were processed

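RNA of 16 quadriceps samples was read on 1 single-colour Agilent array each. Per the file headers, the deposited processed signals are intensities from Agilent Feature Extraction 11.0.1.1 (the submitters' processing notes name 9.5), with yes-or-no marks per spot for saturation, outliers and signal clearly over background. The deposited median and background intensities, per the file headers, served the normexp alternative. Scores of 18324 spots stand in the authors' deposited value table, and equal the deposited signal times 1 factor per array within 2% or 1 unit, with a 75th percentile of 100 and column medians of 22 to 25.

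Spots marked as outliers (0.143% to 3.28% of an array) were left out, spots of a probe averaged as log2, and the array's 75th percentile over probes subtracted. The population for that percentile was settled after the counts of changed genes under 5 definitions had been seen. The definition kept is the one that gave the count of an earlier analysis of these data, 4426 genes with fasting in WT. The other 4 are alternatives below. A probe was kept if all arrays of some group had it well above background (28572), and the brightest kept probe stood for a gene. Names came from RefSeq accessions (28331 probes had a symbol). A probe without a symbol was counted as a gene under its systematic name on the array, so that 14150 of the genes tested had a symbol. Files name build mm9 and the RefSeq table GRCm38.p6, so coordinates are given for RefSeq promoters only. A model of 4 group means was fitted with limma 3.58.1 in R 4.3.3 to 21281 genes with at least 2 values a group, with Benjamini-Hochberg adjustment, and was tested on simulated data. Named genes were the 4 members, the 3 genes most correlated with each, up to 4 passing genes per list and contrast, and Foxo1, Foxo3 and Foxo4; others named beside them were chosen after their values were seen. Members and lists were chosen with earlier results of these data known. Arrays give no counts, so no counting intervals apply. Nothing states whether samples of a group differ in litter or day. The result of 1 listed gene is not reported here.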

Additional observations from a re-analysis of the deposited data

Results flagged for a closer look

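Fgfr1 was the single tested list gene outside the members whose fasting effect differed between the genotypes. The difference was -1.44 on the log2 scale (adjusted p = 0.0171, limma interaction across all genes). Its 4 fasted WT arrays ran from 4.07 to 4.94, and the other 12 from 2.88 to 3.61. The adjusted p reached 0.0458 when single arrays were left out.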

How the results depend on the processing

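The WT fasting and fasted genotype differences of the 4 members kept their sign under each alternative run for them. The authors' value table and the filter that asks for signal over background in all 16 arrays gave no value for Chrna9 and Fgf5. Whether arrays overlapped was the same in all other scalings, background corrections and spot filters but 1, which touched Fgf5. Differences near 0 changed sign, such as Aqp4 with fasting in mFoxO-TKO (-0.38 on slide 1, 0.26 on slide 2). Others that moved were the mFoxO-TKO fasting difference of Fgf5, 1.47 on slide 1 and -0.03 on slide 2, and its separation when the percentile was taken over spots. The Fgf5 interaction was 3.49 on slide 1, 1.88 on slide 2 and 1.26 with normexp, where its WT fasting difference was -0.79 and its fasted genotype difference 1.28. Chrna9 differed by 3.62 between fasted genotypes with normexp. The other Aqp4 probe gave -3.75, 4.55 and 3.6 for WT fasting, fasted genotypes and interaction. Dim signal limits the differences of Chrna9 and Fgf5, mostly those with fasted WT. Leaving out single arrays gave Aqp4 -3.38 to -2.89 (WT fasting), -0.29 to 0.06 (mFoxO-TKO fasting), 0.65 to 0.85 (fed genotypes), 3.61 to 4.10 (fasted genotypes) and 2.83 to 3.32 (interaction). In the same order Chrna9 gave -2.02 to -0.82, 0.57 to 1.63, 2.45 to 3.43, 4.81 to 6.13 and 1.90 to 3.22. Fgf5 gave -2.14 to -1.63, 0.41 to 0.92, -0.23 to 0.28, 2.32 to 2.84 and 2.35 to 2.89. Mpp3 gave -2.51 to -2.06, 0.24 to 0.57 (0.24 without fasted mFoxO-TKO replicate 2), 0.39 to 0.61, 2.97 to 3.41 and 2.47 to 2.92.

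Counts of passing genes depended on the setting, and the cause was not tested. They were 4426 (WT fasting), 1814 (mFoxO-TKO fasting), 217 (fed genotypes), 1991 (fasted genotypes) and 244 (interaction). The scaling used gave fewer than the 4 others that were added after the data were seen, except the percentile over spots for fed genotypes (215) and interaction (240). The interaction count was 468 with all spots, 477 with controls too, 421 with kept probes, 424 with outlier spots kept, 695 in the authors' value table and 79 with no filter on dim probes. Scaling on probes detected on all arrays gave 2728 (mFoxO-TKO fasting), 374 (fed genotypes), 3301 (fasted genotypes) and 520 (interaction). Normexp gave 1182 and 130, and no filter 992 and 109, for mFoxO-TKO fasting and fed genotypes. Slide 1 alone gave 777, 72, 382 and 5 for WT fasting, mFoxO-TKO fasting, fasted genotypes and interaction. Slide 2 alone gave 1089, 18, 1288 and 8 for mFoxO-TKO fasting, fed genotypes, fasted genotypes and interaction. The slide as a block gave 2800, 422, 3026 and 564 for these 4. The replicate block gave 3183, 410, 3377 and 697. Same-numbered arrays deviated together (24 pairs, median r 0.19, others on a slide 0.11, across slides -0.14). The replicate block lost 1 of 60 list calls, Chrna1 (adjusted p = 0.0504, limma).

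Of the passing genes 54.0% were higher with fasting in WT, against 37.1% when scaled on detected probes, 40.3% in the value table and 40.9% with kept probes. For fasted genotypes 46.9% became 62.5%, 57.0% and 61.9%, and for the interaction 36.9% became 51.5%, 50.1% and 50.1%. For mFoxO-TKO fasting 50.4% became 63.9% with normexp. The median of all genes was -0.11 with fasting in WT on detected probes and 0.11 between fasted genotypes with kept probes.

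Leaving out single arrays gave 3441 to 5405, 1067 to 2112, 104 to 300, 1534 to 2292 and 133 to 434 genes in the order above. For mFoxO-TKO fasting the count was 1067 and 1199 without fed mFoxO-TKO replicates 2 and 3 and 1083 without fasted replicate 3. For fed genotypes it was 111, 104 and 120 without fed WT replicates 1, 2 and 3, and 142, 121 and 119 without the fed mFoxO-TKO ones. For the interaction it was 434, 149 and 143 without fasted mFoxO-TKO replicates 1, 2 and 4, 144 and 148 without fed mFoxO-TKO replicates 2 and 3, and 154, 155 and 133 without fed WT replicates 1, 3 and 4.

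The order with fasted mFoxO-TKO above the other 12 arrays held for 151 genes, for 244 on detected probes, 230 with kept probes, 937 on slide 1, 1449 on slide 2 and 150 to 232 without single arrays (229 without fasted WT replicate 1, 232 without fasted mFoxO-TKO replicate 2). The order with fasted WT below held for 656 genes, for 1395 on detected probes, 991 with quantile normalization, 1240 with kept probes, 2467 on slide 1, 2838 on slide 2 and 659 to 1015 without single arrays (1015 without fasted WT replicate 2, 1010 without fasted mFoxO-TKO replicate 3). Of 60 list calls 32 were kept without each array, 57 to 59 under the other scalings of the same signals, and 45 with normexp. Of the 44 calls that could be refitted from the authors' values 43 were kept, as were 36 of 60 with no filter on dim probes.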
